A study of Populus alba x Populus glandulosa with 18 samples.

Results

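In roots of 84K poplar, 115 of 40951 tested gene IDs (0.281%) were higher than in wild type in all 5 engineered lines, whether the line had lost or overexpressed a bHLH factor. The members were chosen by their measured values. On the scale log2(FPKM + 1), the mean of each line had to exceed the wild-type mean by at least 0.6, which is 1.52-fold on FPKM + 1. FPKM is the number of fragments scaled by transcript length and library size, and an ID was tested where at least 3 of the 18 libraries reached 1 FPKM. Differences from wild type are therefore given as descriptions without a test, and the tests below compare the lines with each other.

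The plants are 84K poplar, a hybrid (Populus alba x Populus glandulosa) widely used for transformation, and RNA of their roots was sequenced in 6 groups of 3 libraries. Wild-type 84K (WT) is the control. The knockouts are bhlh58-KO (line 6), bhlh151-KO (line 40) and the double knockout bhlh58/151-KO (line 32), and the overexpression lines are bHLH58-OE (line 20) and bHLH151-OE (line 17). With 1 line per genotype, the effect of the genotype and that of the individual line cannot be told apart. No control line that went through transformation without a bHLH change is among the groups, so what all engineered lines share and what the bHLH changes do cannot be told apart either. The labels give neither the promoter of the overexpression constructs nor the age of the plants.

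Basic helix-loop-helix (bHLH) proteins are transcription factors that bind DNA as dimers, many at short E-box elements, and plant genomes hold large families of them. In Arabidopsis the numbers bHLH58 and bHLH151 belong to BEE2, which takes part in brassinosteroid responses, and to UPBEAT1, which affects root growth through peroxidase genes and the balance of reactive oxygen. The sources used here do not say whether the poplar names follow those numbers. A root holds several cell types, and in bulk tissue fewer cells of a type and less RNA per cell cannot be told apart.

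The deposited table does not pair its IDs with gene names, so no function is given for any member, and root cell type markers and both targeted genes were not examined. No sequence is shown for the same reason. IDs of the form PAxG carry a number, the letter A or G and a serial. Nothing in the labels ties the 3 libraries of a group to separate plants, so the spread behind each p-value may be technical. Library depth is unknown, and Pearson correlations of log2 values over IDs ran from 0.981 to 0.987 within groups. The members lay above their group mean most often in bhlh151-KO replicate 1, in 66.1% of cases, against 49.1% of all tested IDs in that library. Counts between lines that it turns or moves by over 1.5 times, and the run values, are also given without it.

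The rise was of moderate size for most members. The median difference from WT was 1.37 in the double knockout, 1.28 in bhlh151-KO, 1.09 in bHLH151-OE, 1.03 in bhlh58-KO and 0.81 in bHLH58-OE, where the medians over all tested IDs were -0.06, -0.11, -0.09, 0.01 and 0.00. These values are fixed from below by the rule, which asks the same minimum of every line and sets no upper limit. At least 2-fold higher on FPKM + 1 were 96 members in the double knockout (background over all tested IDs 1.57%), 82 in bhlh151-KO (3.71%), 65 in bHLH151-OE (1.40%), 63 in bhlh58-KO (0.806%) and 31 in bHLH58-OE (0.276%). Only 14 members reached 2-fold in all 5 lines.

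**Figure D1:**
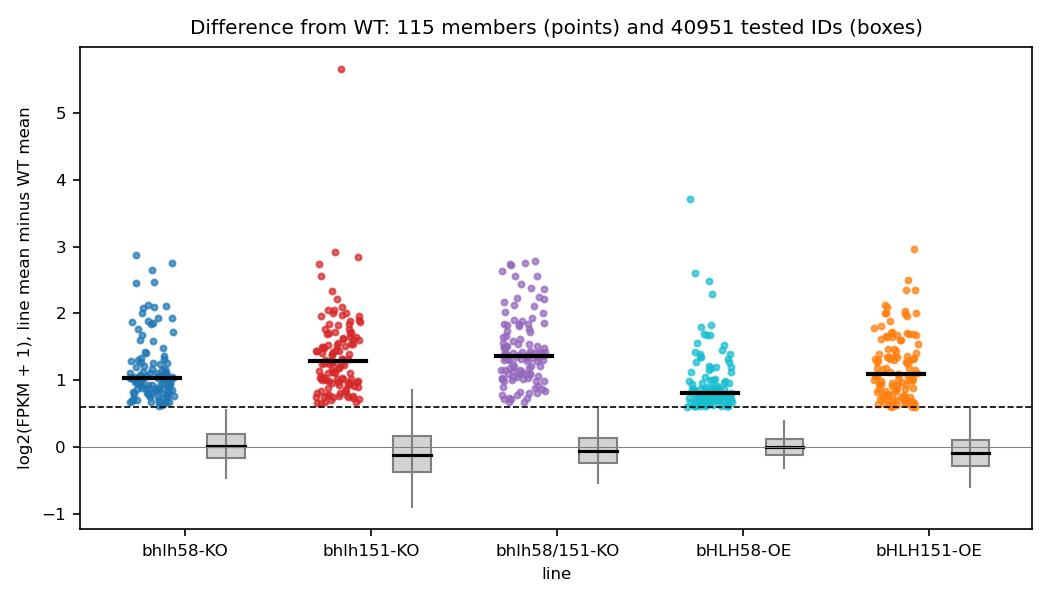
Difference of each line from WT on the log2(FPKM + 1) scale. Points are the 115 members with their median as a bar, the dashed line is the threshold of 0.6, and grey boxes show the quartiles of all 40951 tested IDs with whiskers from the 5th to the 95th percentile. The members' medians run from 0.81 in bHLH58-OE to 1.37 in the double knockout.

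The condition on bHLH58-OE left out the most IDs. Taken alone, 603 IDs passed the threshold in bHLH58-OE, 1740 in bhlh58-KO, 2007 in bHLH151-OE, 2016 in the double knockout and 3534 in bhlh151-KO. Without the condition on bHLH58-OE the other 4 lines left 415 IDs, and in 377 of these bHLH58-OE was above WT by some amount. The 377 include the 115 members, which the rule places above WT. The share of tested IDs above WT in bHLH58-OE was not computed, and the lines share their WT libraries, so nothing is read from the 377. Without the condition on the double knockout the count was 118, so that line left out 3 IDs. The mirrored rule, at least 0.6 lower in all 5 lines, held for 91 IDs. All 5 comparisons share the 3 WT libraries.

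In WT the median of the members was 4.45 FPKM, against 4.81 over all tested IDs. Low WT levels were more frequent among the members, with 21 under 1 FPKM (18.3%, against 6.77% of tested IDs), while 31 were at 10 FPKM or more (27.0%, against 26.6%). An ID under 1 FPKM in every WT library passes the filter only through the lines, and the rule asks for higher lines. These shares are therefore partly set by the selection, and nothing is read from them. NewGene_4102 and PAxG17Gg0275000 had the 2 highest WT means. Summed over members, FPKM took 0.187% ± 0.0072 of the library total in WT (SD, n = 3), 0.409% ± 0.031 in bHLH58-OE, 0.507% ± 0.048 in bHLH151-OE, 0.529% ± 0.027 in bhlh58-KO, 0.549% ± 0.066 in bhlh151-KO and 0.625% ± 0.027 in the double knockout.

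In 98 members all 15 line libraries lay above all 3 WT libraries, which held for 3.09% of tested IDs. The other 17 overlapped WT in at least 1 library. By line, the libraries stood clear of WT for 110 members in each knockout line, 106 in bHLH58-OE and 105 in bHLH151-OE. Over all tested IDs this held for 21% in bhlh58-KO, 20.1% in bhlh151-KO, 17.6% in the double knockout, 12.1% in bHLH58-OE and 14.9% in bHLH151-OE. Because the rule used this contrast, nothing is read from these counts.

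IDs just inside and just outside the threshold were separated by little. NewGene_1655 passed with 0.6002 in bHLH151-OE and PAxG05Gg0009700 with 0.602 in bHLH58-OE. PAxG01Gg0188100 missed it with 0.599 in bHLH151-OE, although it differed by 2.42 in bhlh151-KO, and PAxG02Gg0015300 missed it with 0.598 in bHLH151-OE.

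The largest rise shared by all lines belonged to PAxG17Gg0275100 and NewGene_1392, the members with the highest smallest difference among those with at least 5 FPKM in every line. PAxG17Gg0275100 was at 16.0, 14.9 and 10.7 FPKM in WT, 76.8, 95.4 and 104 in bhlh58-KO, 111, 35.5 and 44.9 in bhlh151-KO, 99.8, 102 and 90.7 under double knockout, 38.7, 47.0 and 72.4 in bHLH58-OE and 78.9, 100.1 and 51.0 in bHLH151-OE. Every line library was above every WT library, and the replicates of bhlh151-KO were uneven. NewGene_1392 was at 13.8, 13.0 and 11.5 FPKM in WT, 98.6, 81.2 and 96.8 in bhlh58-KO, 64.3, 66.1 and 74.8 in bhlh151-KO, 100.1, 80.5 and 95.3 under double knockout, 79.4, 81.8 and 67.6 in bHLH58-OE and 47.1, 44.7 and 40.4 in bHLH151-OE. Its replicates were even, and bHLH151-OE was the lowest line, below bHLH58-OE (log2 difference -0.78, SE 0.10, limma adjusted p = 1.11e-05).

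Some members stood next to other members by serial. No count of runs was made for other sets of tested IDs, so the runs are a description. Serials of PAxG IDs usually step by 100 (62479 of 66090 steps), and 14 of the 106 members with such an ID stood in 5 runs of directly following serials. The longest run held 5 members, PAxG17Ag0214100 to PAxG17Ag0214500, and the next held 3, PAxG17Gg0275000 to PAxG17Gg0275200. Both carry the number 17, the first with the letter A and the second with the letter G. These 8 IDs are named for their serials, after their values had been seen. Whether reads were split between similar copies within or between the runs is not known, so levels of single IDs in a run are uncertain.

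None of the other IDs around both runs met the rule. For the direct neighbours this is fixed, since a run ends where the next ID is no member. In the A run the members differed from WT by 0.94 to 2.24 over the 5 lines, while the 6 tested IDs within 5 steps on either side differed by -1.39 to 0.15. In the G run the members differed by 1.39 to 2.74 and the 8 tested IDs around them by -0.90 to 0.57. The value of 0.57, just under the threshold, belonged to PAxG17Gg0275700 in bhlh58-KO, an ID at 0.767 FPKM in WT. The remaining 4 and 2 IDs of these windows were under the filter and never exceeded 0.402 FPKM.

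Summed over its 5 members, the A run stood at 90.6, 97.4 and 88.2 FPKM in WT, 314, 344 and 392 in bhlh58-KO, 389.9, 139.9 and 159.7 in bhlh151-KO, 415, 497 and 372 under double knockout, 207, 344 and 356 in bHLH58-OE and 413, 463 and 267 in bHLH151-OE. WT was even, and every line library was above it. Summed over its 3 members, the G run stood at 70.8, 64.5 and 57.7 FPKM in WT, 272, 320.3 and 347 in bhlh58-KO, 376, 157 and 155 in bhlh151-KO, 370.3, 419 and 329 under double knockout, 142, 197 and 249 in bHLH58-OE and 312, 369.8 and 229 in bHLH151-OE. The same libraries were high or low in both runs: bhlh151-KO replicate 1 was the highest of its group for 8 of 8 members, by 1.87 to 3.69 times over the next library, and bHLH58-OE replicate 1 and bHLH151-OE replicate 3 were the lowest of their groups in both sums. On average the A run was 4.65-fold over WT in the double knockout and 2.50-fold in bhlh151-KO, and the G run 5.79-fold and 3.56-fold. Without bhlh151-KO replicate 1, an alternative added after the data had been seen, bhlh151-KO was 1.63-fold over WT in the A run and 2.42-fold in the G run.

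**Figure D2:**
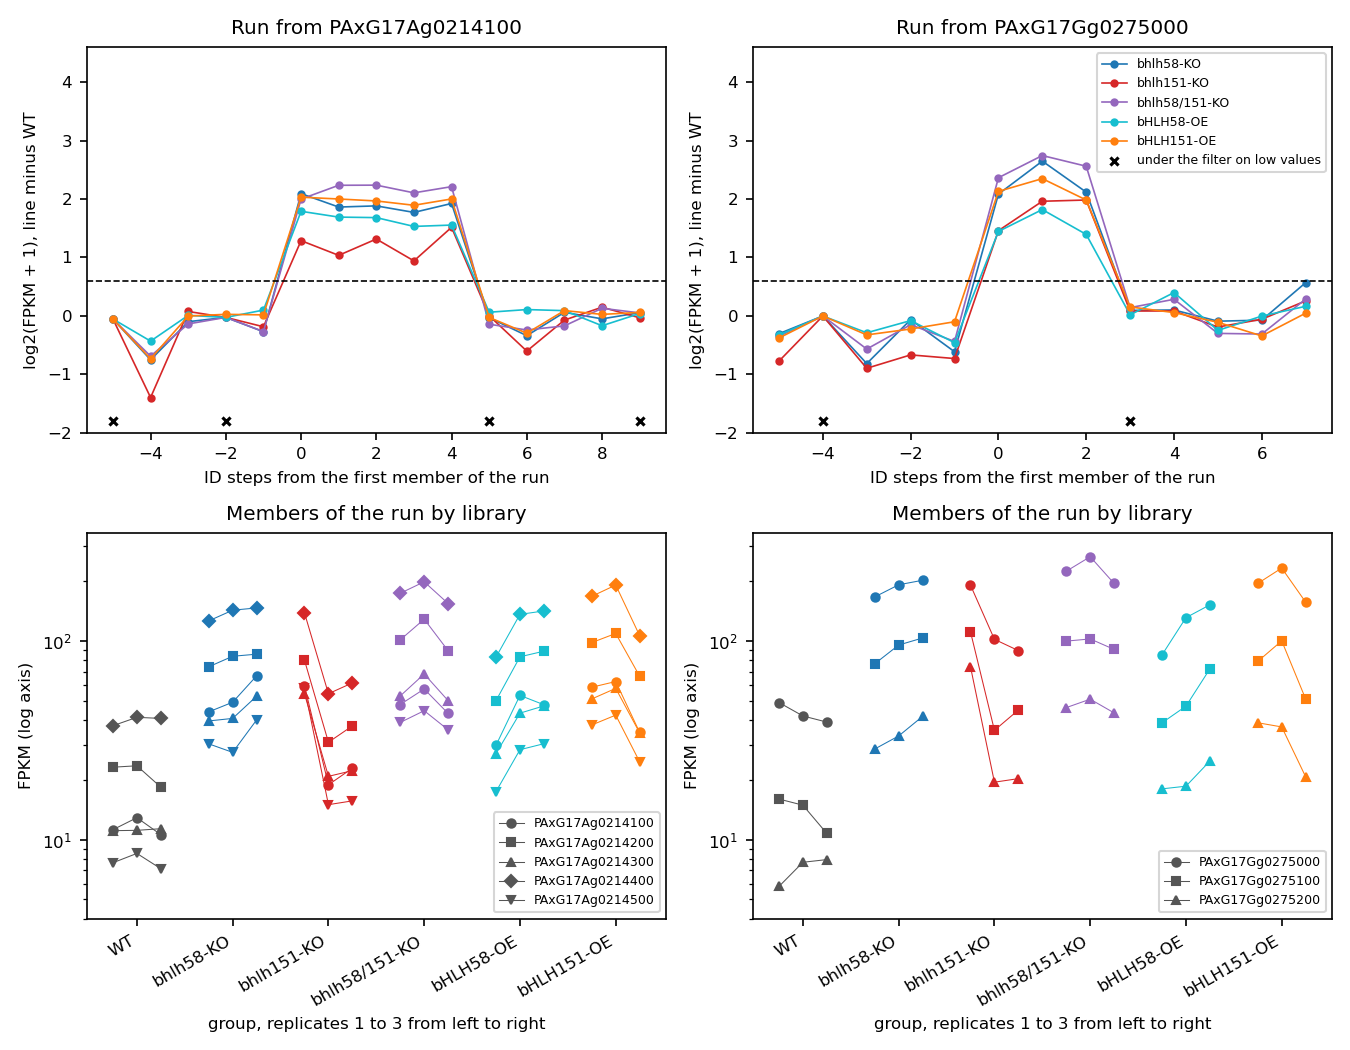
Upper panels show the log2(FPKM + 1) difference of each line from WT for every ID within 5 serial steps of both runs (x axis, steps of 100 from the first member), with the threshold of 0.6 dashed and crosses for IDs under the filter. Lower panels show FPKM of the run members in each library on a log axis, with thin lines joining libraries of a group for reading only. The IDs around the runs stay between -1.39 and 0.57, and bhlh151-KO replicate 1 is the highest of its group for all 8 members.

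The co-movement held within groups as well. After subtracting group means, Pearson correlations over the 18 libraries (12 degrees of freedom) had a median of 0.965 among the 10 pairs within the A run, 0.868 among the 3 pairs within the G run and 0.906 among the 15 pairs across both runs. The median over all 6555 pairs of members was 0.0378. Without bhlh151-KO replicate 1 these medians were 0.926, 0.684, 0.791 and 0.0226. These pairs share their libraries, and the values describe these libraries only.

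PAxG17Gg0275000, the most abundant run member in WT, was at 49.0, 41.9 and 39.0 FPKM in WT, 167, 192 and 202 in bhlh58-KO, 191, 102 and 89.4 in bhlh151-KO, 224, 265 and 195 under double knockout, 85.1, 131 and 152 in bHLH58-OE and 195, 233 and 157 in bHLH151-OE. Its line libraries all lay above WT, and within bhlh151-KO replicate 1 stood above the other libraries.

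Differences between lines were called for some run members. The double knockout was above bhlh151-KO for PAxG17Ag0214200 (log2 difference 1.20, SE 0.31, limma adjusted p = 0.0117), PAxG17Ag0214400 (log2 difference 1.16, SE 0.31, limma adjusted p = 0.0148), PAxG17Gg0275000 (log2 difference 0.91, SE 0.27, limma adjusted p = 0.0221) and PAxG17Ag0214300 (log2 difference 0.92, SE 0.31, limma adjusted p = 0.044). The first 3 calls ended without bhlh151-KO replicate 2 (limma adjusted p = 0.0539, 0.0652 and 0.0835), without replicate 3 (0.0504, 0.0623 and 0.0963) and in a fit of these 2 groups only (0.0951, 0.106 and 0.108). They also ended without double knockout replicate 2 (limma adjusted p = 0.0517, 0.0553 and 0.0853). The call of PAxG17Gg0275000 ended without double knockout replicate 1 too (limma adjusted p = 0.0552), and that of PAxG17Ag0214300 under 15 of its alternatives. For PAxG17Ag0214100, PAxG17Ag0214500, PAxG17Gg0275100 and PAxG17Gg0275200 no difference among the lines was called (limma adjusted p = 0.295, 0.472, 0.157 and 0.195).

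The 8 run IDs held 16.1% ± 0.74 of the members' summed FPKM in WT and between 15.3% ± 6.87 (bhlh151-KO) and 25.2% ± 4.24 (bHLH151-OE) in the lines. Without them the sum was 813 ± 25.3 FPKM in WT, 1650 ± 41.3 in bHLH58-OE, 2006 ± 99.9 in bHLH151-OE, 2128 ± 65.2 in bhlh58-KO, 2443 ± 90.2 in bhlh151-KO and 2540 ± 87.0 in the double knockout (SD, n = 3). The rule fixes that this sum is higher in the lines, so it is given for its size only.

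A further set lay close together without touching. PAxG11Ag0022300, PAxG11Ag0022500 and PAxG11Ag0022700 are spaced by 200 and had their highest mean in the double knockout; they are grouped by their serials, after their values had been seen. PAxG11Ag0022500 was at 3.68, 6.70 and 3.76 FPKM in WT, 8.62, 14.2 and 10.9 in bhlh58-KO, 17.9, 17.8 and 13.8 in bhlh151-KO, 41.1, 30.5 and 25.3 under double knockout, 11.4, 11.9 and 12.0 in bHLH58-OE and 9.52, 9.33 and 7.11 in bHLH151-OE. Its double knockout libraries lay above those of every other group. The other IDs of the set overlapped WT in single libraries. WT replicate 2 was at 24.6 FPKM for PAxG11Ag0022300 and 11.7 for PAxG11Ag0022700, above bHLH58-OE replicate 3 at 24.3 and 9.90. Against bhlh58-KO the double knockout was higher for PAxG11Ag0022500 (log2 difference 1.44, SE 0.20, limma adjusted p = 0.000146), PAxG11Ag0022300 (log2 difference 1.40, SE 0.22, limma adjusted p = 0.000835) and PAxG11Ag0022700 (log2 difference 1.31, SE 0.29, limma adjusted p = 0.0106). Against bhlh151-KO it was called higher for PAxG11Ag0022500 (log2 difference 0.91, SE 0.20, limma adjusted p = 0.00197) but not for PAxG11Ag0022300 (limma adjusted p = 0.0631) or PAxG11Ag0022700 (limma adjusted p = 0.124).

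By form of ID the members resembled the table. The letter A was on 57 (49.6%, against 47.2% of tested IDs), the letter G on 49 (42.6%, against 46.1%), and 9 were NewGene IDs (7.83%, against 6.66%). Of the A members, 12 had a G member with the same number within a serial distance of 2000, and 6 had such a member within 1000. The 14 pairs formed at 2000 had the same highest line in 9 cases. PAxG11Ag0097200 and PAxG06Gg0088900 stand in several of these pairs. No rate was computed for other members or for tested IDs, so nothing is read from the pair counts. The files do not say which IDs are copies of each other in the A and G sets.

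PAxG13Ag0088000 and PAxG13Gg0088100, such a pair, had the largest called differences between the single knockouts and between the overexpression lines. PAxG13Ag0088000 was at 2.91, 3.17 and 3.44 FPKM in WT, 5.97, 6.27 and 5.08 in bhlh58-KO, 31.9, 27.1 and 32.5 in bhlh151-KO, 14.3, 15.2 and 11.6 under double knockout, 5.87, 5.18 and 5.70 in bHLH58-OE and 21.9, 20.5 and 18.4 in bHLH151-OE. Both bHLH151 lines were high, the double knockout was in between, and both bHLH58 lines were nearest WT with overlapping libraries. PAxG13Gg0088100 had the same order, at 4.44, 4.66 and 4.91 FPKM in WT, 9.83, 12.6 and 12.4 in bhlh58-KO, 34.5, 38.7 and 36.9 in bhlh151-KO, 19.3, 20.3 and 18.0 under double knockout, 8.11, 8.07 and 11.4 in bHLH58-OE and 28.1, 32.5 and 32.5 in bHLH151-OE. The difference of bhlh151-KO from bhlh58-KO was called for both (log2 difference 2.22, SE 0.10, limma adjusted p = 4.87e-12 and log2 difference 1.58, SE 0.11, limma adjusted p = 1.29e-09), as was that of bHLH151-OE from bHLH58-OE (log2 difference 1.69, SE 0.10, limma adjusted p = 1.58e-09 and log2 difference 1.67, SE 0.11, limma adjusted p = 3.53e-09).

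Which line stood highest varied among the members. The double knockout had the highest mean in 47, bhlh151-KO in 36, bhlh58-KO in 16, bHLH151-OE in 12 and bHLH58-OE in 4, while bHLH58-OE was the lowest line in 61. Over all tested IDs the double knockout was the highest line in 12.3% and bHLH58-OE in 30.8%. These positions rest on means without a test and on the values the rule used.

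**Figure D3:**
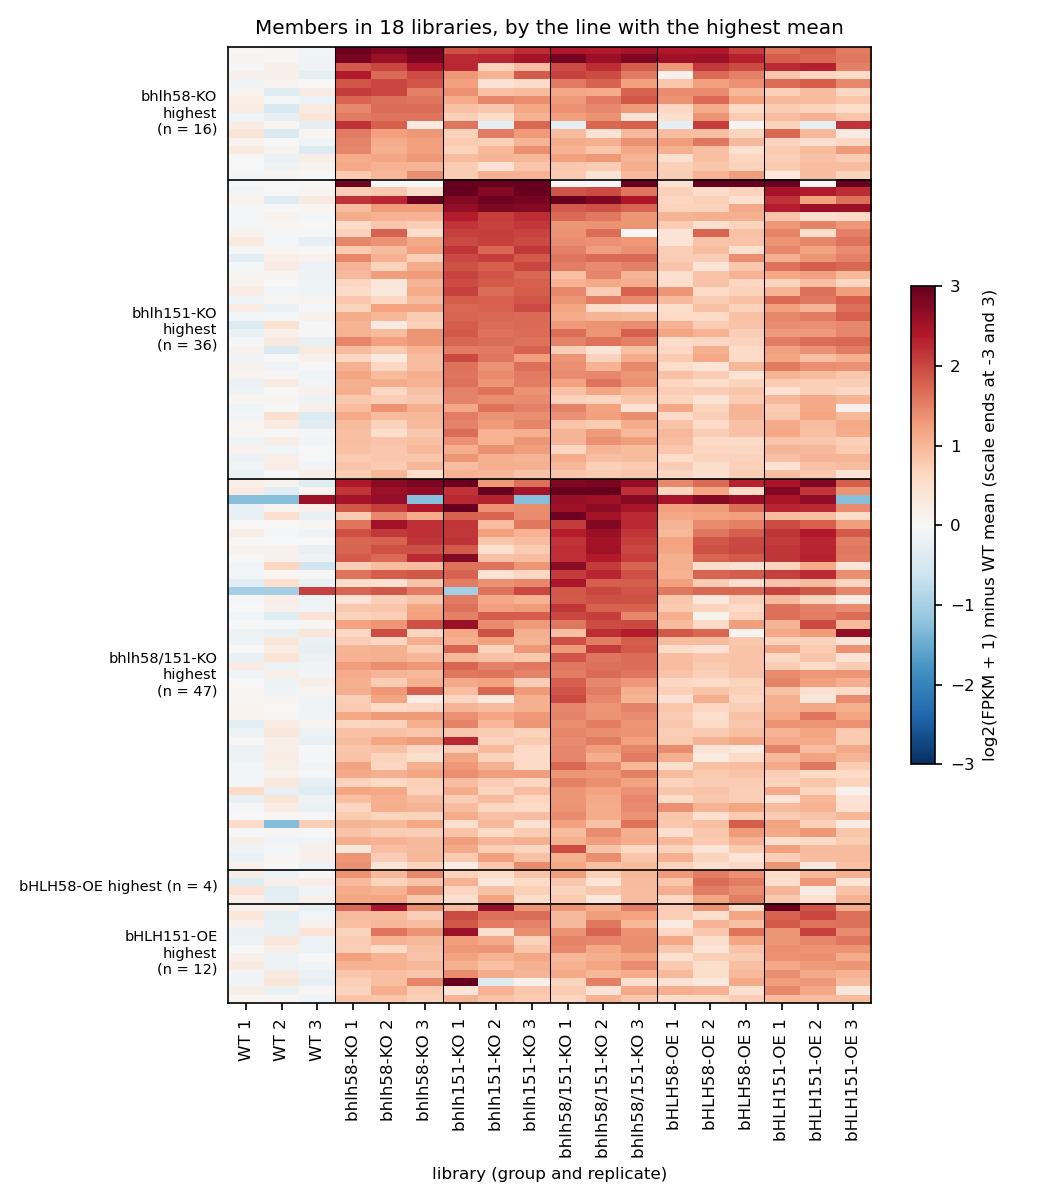
Each row is a member and each column a library, coloured by log2(FPKM + 1) minus the WT mean of that ID (scale from -3 to 3). Rows are grouped by the line with the highest mean, which is the double knockout for 47 members and bhlh151-KO for 36, and a few rows show single libraries at the WT level or WT libraries at the level of the lines.

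The lines were compared with each other in a limma fit on log2(FPKM + 1) of all tested IDs with a mean per group, and a difference was called where its Benjamini-Hochberg adjusted p over all 40951 IDs was under 0.05. The rule set no direction between lines, but the libraries of the lines entered it, and the 7 comparisons share libraries. High values were not equally frequent in the lines. At least 2-fold above WT were 0.276% of tested IDs in bHLH58-OE, 1.40% in bHLH151-OE and 0.806% to 3.71% in the knockout lines. With the same minimum asked of every line, the direction of calls among members is not independent of the rule. The background over all tested IDs has no such cut, so the directions below are descriptions. A difference among the 5 lines was called for 80 of 115 members (69.6%), against 49.9% of tested IDs, and in 32 members none of the 7 comparisons gave a call. The share of tested IDs without any call was not computed, so nothing is read from the 32.

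Where the difference between the means of both kinds of line was called, members were lower in the overexpression lines. The cut at the same minimum in every line may have set part of this direction, which was not tested. The mean of the overexpression lines was called lower than the mean of the knockout lines for 44 members (10.1% of tested IDs) and higher for 0 (10.9% of tested IDs). Calls in either direction were made for 21.0% of tested IDs. No member was higher at an unadjusted p under 0.05 either, while 53 were lower, and no member was called higher under any alternative run. Shares of tested IDs at an unadjusted p were not computed for any comparison, and the alternatives use the same members. These counts therefore add no support to the direction. The median difference was -0.20, against 0.01 over all tested IDs, and 98 of 115 members were below 0. How many tested IDs were below 0 was not computed. In 28 members both overexpression means lay under all 3 knockout means (10.5% of tested IDs), and in 1 they lay above (8.93% of tested IDs).

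Lower values under overexpression prevailed for each gene as well. In bHLH58-OE against bhlh58-KO, 14 members were called by limma (background 9.29%), 14 lower (4.92% of tested IDs) and 0 higher (4.37%; 0 also at an unadjusted p under 0.05), with a median of -0.19. In bHLH151-OE against bhlh151-KO, 28 were called (20.8%), 25 lower (9.39%) and 3 higher (11.4%), with a median of -0.16. PAxG17Ag0214200 and PAxG17Ag0214400, of the A run, and NewGene_4102 were the 3 higher ones, and bhlh151-KO replicate 1 was the highest of its group in each of them. The calls of the A run members ended under 16 and 18 of their alternatives, with limma adjusted p up to 0.217 and 0.262. Without bhlh151-KO replicate 1, 10 members were higher and 25 lower.

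PAxG01Gg0144700 had the largest such difference for bHLH58. It was at 30.2, 21.5 and 34.5 FPKM in WT, 130.0, 142 and 223 in bhlh58-KO, 197, 220.1 and 209.7 in bhlh151-KO, 249, 204 and 157 under double knockout, 44.6, 47.1 and 39.8 in bHLH58-OE and 131, 66.9 and 91.0 in bHLH151-OE. No overexpression library reached the lowest knockout library except bHLH151-OE replicate 1. The call was made for bHLH58 (log2 difference -1.85, SE 0.25, limma adjusted p = 0.000413) and for bHLH151 (log2 difference -1.16, SE 0.25, limma adjusted p = 0.00438). PAxG09Gg0099500 was next for bHLH58, at 10.9, 7.08 and 9.67 FPKM in WT, 43.9, 58.9 and 62.6 in bhlh58-KO, 44.1, 80.1 and 55.8 in bhlh151-KO, 78.9, 79.7 and 44.8 under double knockout, 14.8, 21.8 and 14.3 in bHLH58-OE and 68.7, 43.8 and 24.6 in bHLH151-OE. Its bHLH58-OE libraries were the lowest of all lines (log2 difference -1.65, SE 0.35, limma adjusted p = 0.00897).

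PAxG01Ag0163900 had the largest difference for bHLH151. It was at 8.78, 9.87 and 8.63 FPKM in WT, 20.6, 19.7 and 19.9 in bhlh58-KO, 50.8, 41.1 and 45.8 in bhlh151-KO, 31.8, 29.2 and 24.4 under double knockout, 19.4, 20.1 and 20.2 in bHLH58-OE and 17.3, 13.4 and 14.2 in bHLH151-OE. The bhlh151-KO libraries were the highest of all, and those of bHLH151-OE the lowest of the lines (log2 difference -1.56, SE 0.10, limma adjusted p = 1.27e-09). The bHLH58 lines overlapped.

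**Figure D4:**
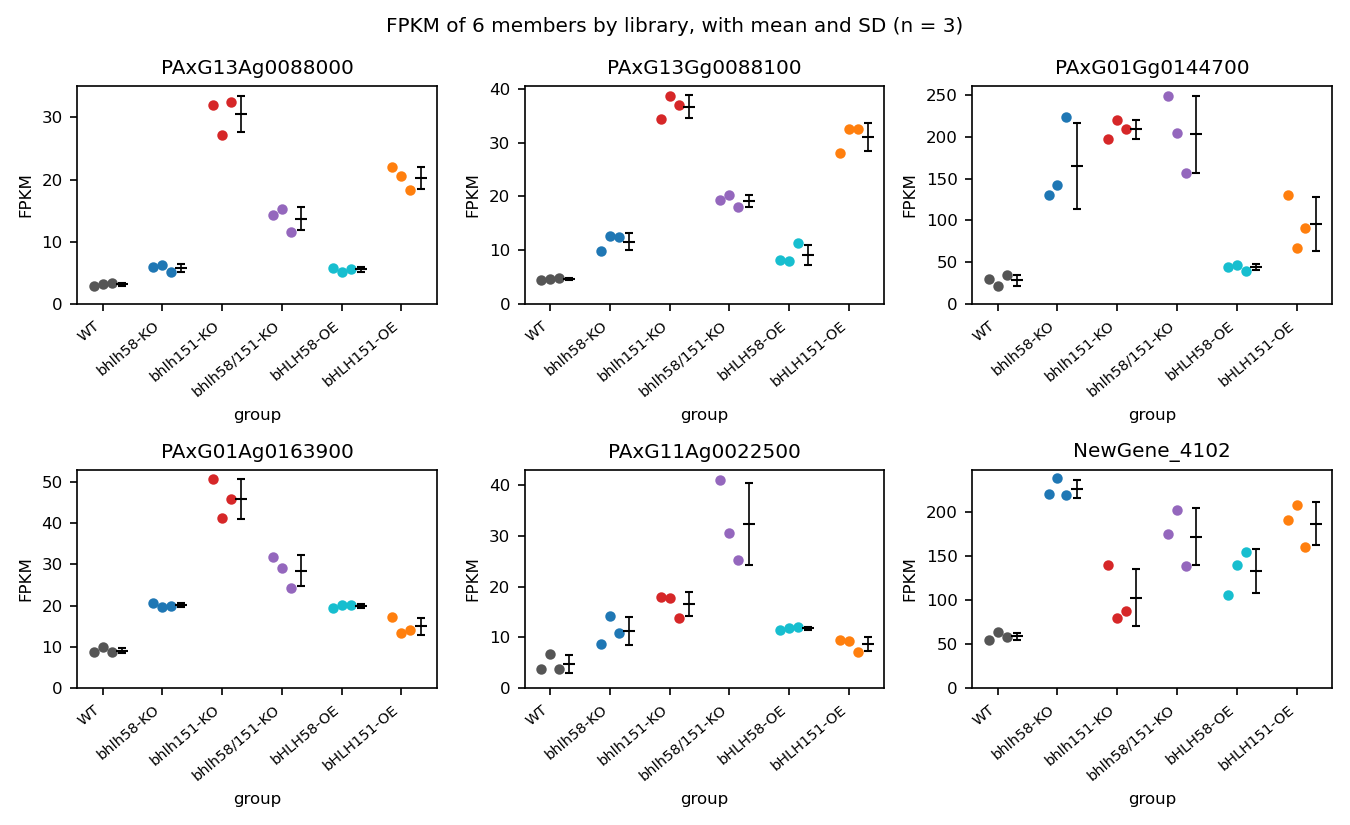
FPKM of 6 members in each of the 18 libraries (points), with the group mean and SD (n = 3) beside them; each y axis starts at 0. PAxG13Ag0088000 and PAxG13Gg0088100 are highest in bhlh151-KO and bHLH151-OE, PAxG01Gg0144700 is higher in the knockout lines than in bHLH58-OE, and PAxG11Ag0022500 is highest in the double knockout.

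Between the single knockouts, bhlh151-KO was mostly the higher. Of 51 members called (36.9% of tested IDs), it was above bhlh58-KO for 42 (11.2%) and below for 9 (25.7%), with a median of 0.12 against -0.13 over all tested IDs. Without bhlh151-KO replicate 1 the split was 32 above and 19 below. NewGene_4102 had the largest difference in the other direction. It was at 55.0, 63.3 and 58.7 FPKM in WT, 221, 239 and 219.9 in bhlh58-KO, 139.8, 80.0 and 88.2 in bhlh151-KO, 175, 203 and 139 under double knockout, 106, 139.6 and 154 in bHLH58-OE and 192, 209 and 161 in bHLH151-OE. The bhlh58-KO libraries were above those of all other groups, and bhlh151-KO replicate 1 was far above its other libraries (log2 difference -1.18, SE 0.19, limma adjusted p = 0.000152). Of the 9 members that were lower in bhlh151-KO, 4 were NewGene IDs. NewGene IDs were 6.66% of tested IDs. Their share among all tested IDs called lower in bhlh151-KO was not computed, so nothing is read from this count.

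The double knockout was above bhlh58-KO in almost every call. Of 29 members called (9.09% of tested IDs), it was higher for 28 (3.81%) and lower for 1 (5.27%), with a median of 0.28 against -0.06 over all tested IDs. The call below was NewGene_1136, named after its values were seen (log2 difference -0.44, SE 0.09, limma adjusted p = 0.00565), at 12.7 ± 0.734 FPKM in WT, 98.9 ± 6.52 in bhlh58-KO and 72.8 ± 3.33 in the double knockout (SD, n = 3). Without bhlh58-KO replicate 2, 19 members were called.

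The comparison of the double knockout with bhlh151-KO went both ways. Of 41 members called (25.7% of tested IDs), 22 were higher (15.7%) and 19 lower (10.0%), with a median of 0.13. The higher ones numbered 11 of 28 without bhlh151-KO replicate 3, and 28 of 46 without its replicate 1. Among the lower ones, PAxG13Ag0088000 (log2 difference -1.10, SE 0.10, limma adjusted p = 1.11e-07) and PAxG16Ag0094400 (log2 difference -1.08, SE 0.19, limma adjusted p = 0.000286) differed most. PAxG16Ag0094400 was at 6.54, 4.62 and 5.29 FPKM in WT, 20.3, 20.8 and 24.4 in bhlh151-KO and 13.7, 8.49 and 7.89 in the double knockout. In 51 members the double knockout mean lay above both single knockouts, in 51 between them and in 13 below both. Over all tested IDs those shares were 23.9%, 49.3% and 26.8%.

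Of the overexpression lines, bHLH151-OE was the higher more often. Of 39 members called (24.5% of tested IDs), it was above bHLH58-OE for 31 (8.64%) and below for 8 (15.9%), with a median of 0.24 against -0.09 over all tested IDs.

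The difference between overexpression and knockout was itself called different between both genes for 12 of 115 members, 10.4% against a background of 8.08%, with the difference more positive for bHLH151 in 5 (4.54%) and for bHLH58 in 7 (3.54%). Without bhlh151-KO replicate 1 the balance turned, to 13 more positive for bHLH151 and 4 for bHLH58, so no direction is read from these counts, and the share is near the background. This contrast was added after the data had been seen.

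**Figure D5:**
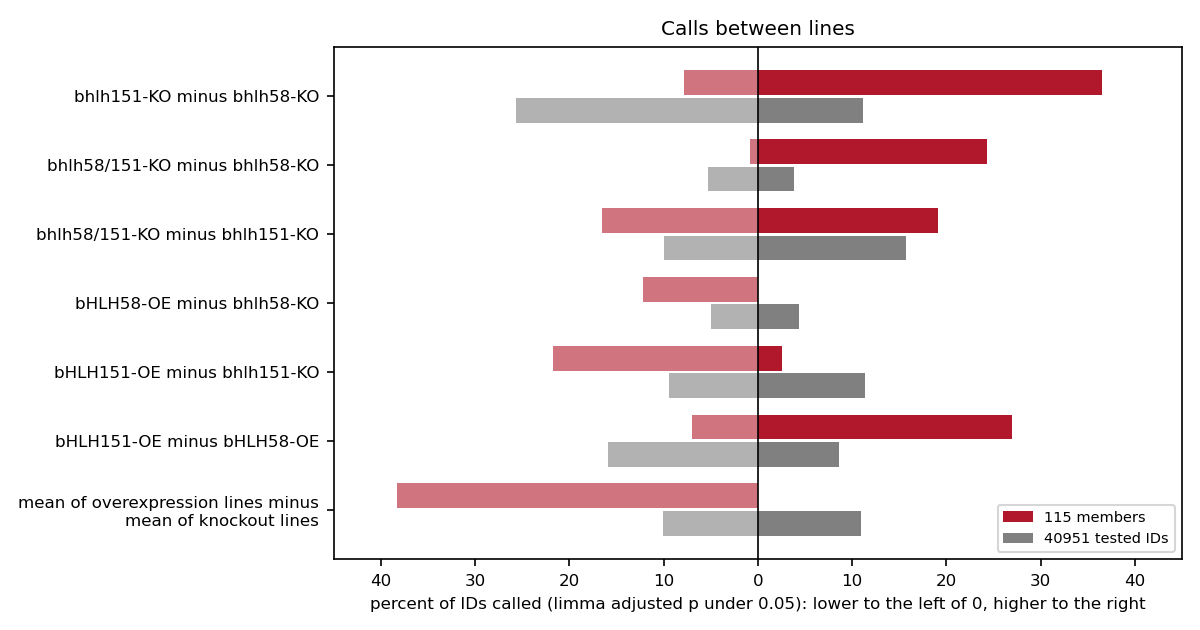
Percent of IDs called in each comparison between lines, to the right for higher and to the left for lower values in the first-named line; red bars are the 115 members and grey bars all 40951 tested IDs. The mean of the overexpression lines is called lower for 44 members and higher for 0.

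Some members were level across the lines. Among those with at least 5 FPKM in every line, NewGene_5340 had the narrowest span of line means, 0.30 on the log2 scale. It was at 21.5, 21.7 and 18.9 FPKM in WT, 38.0, 37.6 and 34.7 in bhlh58-KO, 43.2, 37.9 and 36.6 in bhlh151-KO, 32.9, 43.5 and 37.1 under double knockout, 31.0, 32.0 and 35.2 in bHLH58-OE and 40.5, 40.0 and 41.1 in bHLH151-OE. All line libraries lay above WT, those of bHLH58-OE lay below those of bhlh151-KO and bHLH151-OE, and a difference among all lines was not called (limma adjusted p = 0.0589). PAxG02Gg0243600 followed with a span of 0.35 and between 10.4 and 13.5 FPKM in the line means, against 6.15 in WT.

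Members varied more between libraries of a group than the table did. Their pooled within-group SD on the log2 scale had a median of 0.24, against 0.15 over all tested IDs. The rule compares means of 3 libraries, and uneven libraries can carry an ID over its threshold. This difference is therefore not independent of the rule, and nothing is read from it. The most variable were PAxG03Gg0128300 and PAxG03Gg0081900, with 2.31 and 1.78. PAxG03Gg0081900 was listed at 0, 0 and 13.4 FPKM in WT, 12.8, 14.2 and 0 in bhlh58-KO, 10.7, 11.1 and 0 in bhlh151-KO, 13.9, 13.3 and 15.0 under double knockout, 12.4, 15.4 and 13.8 in bHLH58-OE and 12.2, 14.2 and 0 in bHLH151-OE. Its libraries were either at 0 or at about the same level, WT replicate 3 included, so its place among the members rests on 2 WT libraries listed at 0.

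PAxG14Gg0078200, named after its values were seen, was of the same kind. It was listed at 0, 0 and 7.46 FPKM in WT, 5.89, 6.36 and 4.97 in bhlh58-KO, 0, 5.29 and 7.17 in bhlh151-KO, 6.42, 7.22 and 6.59 under double knockout, 5.08, 5.75 and 5.70 in bHLH58-OE and 7.34, 6.38 and 4.66 in bHLH151-OE. WT replicate 3 was the highest of all 18 libraries. PAxG03Gg0128300 was listed at 0, 0 and 0 FPKM in WT, 6.57, 0 and 0 in bhlh58-KO, 25.2, 52.1 and 91.2 in bhlh151-KO, 0, 0 and 82.8 under double knockout, 0.357, 30.6 and 51.5 in bHLH58-OE and 24.4, 0 and 17.6 in bHLH151-OE. It was the only member listed at 0 in all WT libraries, and libraries at 0 occurred in 3 of the 5 lines as well. In all, 6 members were listed at 0 in at least 1 library, and 3 held both a 0 and at least 5 FPKM within a group. Whether such zeros are estimates that failed or absence of RNA was not tested.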

How the data were processed

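RNA of poplar roots was sequenced in 18 libraries, 3 per group. The authors deposited 1 table of FPKM values per gene ID and library, a unit taken from the table's name; the submitters' processing notes name DESeq2 without version or role, while neither labels nor notes name an aligner, genome build or counting program. The table holds 71159 IDs.

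Values were used as log2(FPKM + 1), for the 40951 IDs that reached 1 FPKM in 3 or more libraries. Log2 differences on this scale understate changes of low IDs. FPKM is no count, so limma 3.58.1 (R 4.3.3; trend and robust eBayes, Benjamini-Hochberg adjustment over all tested IDs) was used, with 1 mean per group over all libraries; it was tested on simulated data. The members, the comparisons and the lists were chosen with earlier results of these data known.

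IDs were named by these rules: the 2 members with the largest smallest difference from WT, the 2 with the highest WT mean, the 2 nearest inside and outside the threshold, per comparison between lines at most 2 higher and 2 lower with a called difference of at least 2-fold, no overlap of libraries and at least 5 FPKM, the 2 with the narrowest span and the 2 with the largest spread. IDs of runs, and others where said, were named after their values were seen. No member met these rules for the comparison of the mean of the overexpression lines with that of the knockouts. Figures were drawn with matplotlib 3.10.9. Alternatives were another pseudocount, filters, scalings, a replicate block, plain eBayes, fits of 2 groups and leaving out each library.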

Additional observations from a re-analysis of the deposited data

Results flagged for a closer look

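The difference between overexpression and knockout was itself compared between both genes, as (bHLH151-OE minus bhlh151-KO) minus (bHLH58-OE minus bhlh58-KO), a contrast added after the data had been seen. A difference between the genes was called for 12 members, 5 higher (4.54% of tested IDs) and 7 lower (3.54%), with 6 to 17 calls when 1 library was left out (6 without bHLH151-OE replicate 2) and with 3 of 11 higher under median-of-ratios scaling. Without bhlh151-KO replicate 1 the split turned to 13 higher and 4 lower. NewGene_4102 had the largest positive value (log2 difference 1.67, SE 0.27, limma adjusted p = 0.000757). PAxG17Gg0275000 followed (log2 difference 1.31, SE 0.38, limma adjusted p = 0.0488), a call that ended under 19 of its alternatives (limma adjusted p up to 0.113). PAxG01Ag0163900 (log2 difference -1.55, SE 0.14, limma adjusted p = 6.89e-07) and PAxG05Gg0060800 (log2 difference -1.12, SE 0.19, limma adjusted p = 0.000481) had the largest negative values. PAxG05Gg0060800 was at 3.08, 2.73 and 2.40 FPKM in WT, 4.84, 3.82 and 6.50 in bhlh58-KO, 13.6, 12.4 and 11.8 in bhlh151-KO, 6.70, 7.29 and 6.92 under double knockout, 4.41, 5.70 and 4.82 in bHLH58-OE and 4.97, 6.01 and 4.81 in bHLH151-OE. Its bhlh151-KO libraries were the only ones above those of every other group.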

How the results depend on the processing

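The number of members depended on the scale: 393 IDs met the rule with a pseudocount of 0.1 and 173 after rescaling to TPM, each including the 115 members, against 130 after scaling by median of ratios, 120 with quantile-normalized values, 86 with a mean of at least 5 FPKM and 109 to 172 with a library left out. The highest count came without WT replicate 2, and 93 to 96 of the 115 remained when a single WT library was left out. With the pseudocount of 0.1 the median differences were 1.23 in bhlh58-KO, 1.63 in bhlh151-KO, 1.63 in the double knockout, 1.00 in bHLH58-OE and 1.42 in bHLH151-OE. For bhlh58-KO, the double knockout and bHLH151-OE they were 1.01, 1.43 and 1.17 by median of ratios, 1.00, 1.38 and 1.19 with quantile-normalized values and 1.11, 1.42 and 1.21 after TPM rescaling, which gave 0.86 for bHLH58-OE. With a mean of at least 5 FPKM, the double knockout gave 1.38 and bHLH151-OE 1.19. Leaving out libraries gave 0.99 to 1.05 for bhlh58-KO, 1.18 to 1.35 for bhlh151-KO, 1.33 to 1.42 for the double knockout, 0.80 to 0.84 for bHLH58-OE and 1.07 to 1.16 for bHLH151-OE. The median of all tested IDs in bhlh151-KO moved from -0.11 to 0.00068 under median-of-ratios scaling. Calls between the double knockout and bhlh58-KO ranged from 19 to 32 with a library left out, and those of the difference between genes from 6 to 17. The other 6 comparisons between lines and the test among all lines kept their counts within 1.5 times under every alternative run. Of 31 named differences, 0 changed sign in 830 values and 8 lost their call in 92, of which 73 had a library left out; the cause was not tested.

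The replicate number was used as a block in an alternative fit. Same-numbered libraries of different groups did not deviate together (correlations from -0.168 to 0.074 over 45 pairs), and 8 of 18 libraries were closest to their own number. No strong shared deviation by number was seen. These values cannot show whether same-numbered libraries were grown or prepared together, which the labels do not state. With the replicate block, 52 members were called between the single knockouts, 29 and 40 for the double knockout against bhlh58-KO and bhlh151-KO, 14 and 26 for overexpression against knockout of bHLH58 and bHLH151, 39 between the overexpression lines, 43 for the means, 12 for the difference between genes and 77 among all lines. Depth is unknown, so no limit for low IDs can be given.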
